A study of Enchytraeus crypticus with 60 samples.

Results

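These are the 150 genes of *Enchytraeus crypticus* that were most strongly higher after 7 d than after 3 d in soil without silver, chosen out of 23179 genes with a signal above background on all 60 arrays. A gene here is 1 array probe, each made for a different contig or sequencing read, after the usage of the study. The genes were picked from the measured values, as follows. Log2 signals were set relative to the median of their array, and the change from 3 d to 7 d was taken in un-spiked soil and in soil with a dispersant. The lower of the 2 changes is the score of a gene. Genes whose 16 differences between silver and control averaged 0.5 or more in size on the log2 scale were left out, and the 150 highest scores were taken from the 20900 that stayed. Of the 502 genes whose score was at least that of the last of the 150, this limit removed 352, of which 336 were on average higher in silver than in the controls and 16 lower.

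*E. crypticus* is a small white oligochaete worm of the soil, which feeds on decaying plant matter and microbes, lays its eggs in cocoons and is used in standard tests of soil toxicity. Gene expression of such animals changes with age, feeding state and the time since transfer to a new soil, and so controls are sampled at each time of an exposure test. Silver ions bind to thiol groups of proteins, and silver particles release such ions, which is why a silver salt and particles of several kinds are compared. The files give each gene an identifier of a contig or a read and no gene name, and no role can be given to any of the genes below.

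Adult worms were kept in LUFA 2.2 natural soil without food, and each array held RNA of a pool of 20 whole worms, so that more RNA per cell and more cells of a kind cannot be told apart. The silver was given as a salt, silver nitrate (AgNO3), or as nanoparticles, namely Ag-NPs PVP-Coated, whose coat is polyvinylpyrrolidone, Ag-NPs Non-Coated, which are bare, and the reference nanomaterial Ag NM300K, each for 3 or 7 d at the concentrations estimated to lower reproduction by 20% (EC20) or 50% (EC50). The controls were soil left un-spiked, and soil to which the dispersant of Ag NM300K was added, each at 3 and 7 d. This gives 16 silver groups and 4 control groups of 3 arrays, with 48 silver and 12 control arrays. Across the arrays, between 66.9% and 97.7% of the gene probes were above background. The median of this share was 78.5% in the controls at 3 d and 74.6% at 7 d, and 79.0% in silver at 3 d and 81.1% at 7 d.

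The changes of the 150 genes in the controls are the values that chose them, and they are given as a description with no test. The scores ran from 1.10 to 4.10 on the log2 scale with a median of 1.31, so that the least change in either kind of control was 2.15-fold for the last gene and 17.2-fold for the first. In un-spiked soil the change had a median of 1.42 and reached 4.10. In soil with dispersant the median was 1.45 and the highest value 5.03, and 65 of the 150 genes changed less in un-spiked soil than in soil with dispersant. The 3 arrays at 7 d lay above the 3 at 3 d for 143 of the 150 genes in un-spiked soil, where 13.0% of all genes did so, and for 124 in soil with dispersant, where 8.92% did so. The border of the group was not a gap. The last genes inside, GYUW2K401CDLK2 and GYUW2K401AHIW9, had scores of 1.105 and 1.101, and the first outside, contig21968 and GYUW2K402GCEB2, had 1.100 and 1.096.

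**Figure D1:**
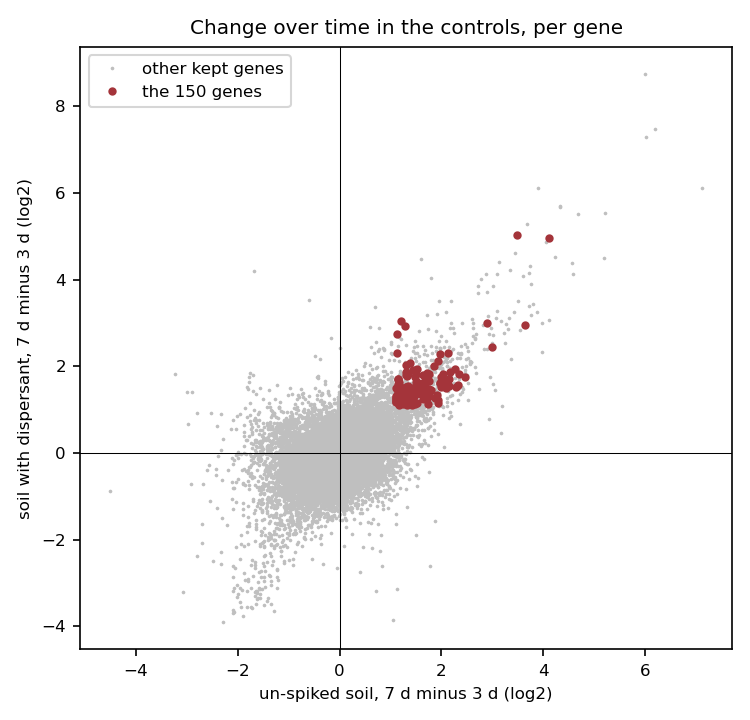
Change from 3 d to 7 d in un-spiked soil (horizontal axis) and in soil with dispersant (vertical axis), in log2 units relative to the array median, with 1 point per gene. The 150 genes (red) start at 1.10 on both axes. Grey points with larger changes are genes left out because silver and control differed on average.

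The array values show how the 150 genes stood in each group. Their mean level, in log2 units from the array median, was 0.17, -0.22 and -0.38 on the 3 arrays of un-spiked soil at 3 d, and 1.30, 1.61 and 1.34 at 7 d. In soil with dispersant it was -0.33, -0.61 and 0.76 at 3 d, and 1.49, 1.46 and 1.57 at 7 d. The third array of the dispersant at 3 d thus stood well above the other 2. Without it, 107 of the 150 genes would again be chosen by the rule.

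At 3 d the silver arrays were spread out, and at 7 d they were close together. The mean level of the 150 genes on the 24 silver arrays at 3 d had a lowest value of -0.68, a median of 0.90 and a highest value of 1.22. On the 24 silver arrays at 7 d the lowest was 1.0, the median 1.21 and the highest 1.42. The lowest array at 3 d was AgNO3 EC50 replicate 3, whose group had 0.43, 0.97 and -0.68. AgNO3 EC20 was similar, with 0.88, 1.05 and -0.07. Ag-NPs Non-Coated EC50 also held 1 low array, with 0.13, 1.22 and 1.06. The narrowest and highest group at 3 d was Ag-NPs PVP-Coated EC50, with 1.19, 1.10 and 1.13, and it was the single exposure whose mean at 3 d (1.14 ± 0.05, SD, n = 3) lay above its mean at 7 d (1.07 ± 0.08).

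**Figure D2:**
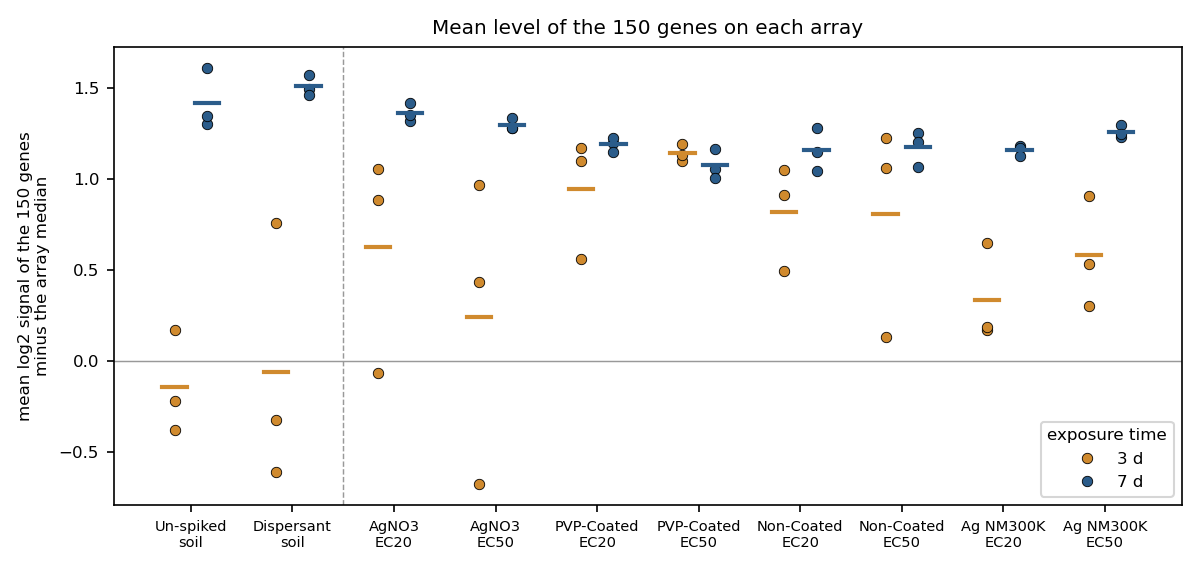
Mean log2 signal of the 150 genes minus the array median (vertical axis) on each of the 60 arrays, by control or silver exposure (horizontal axis), at 3 d (orange) and 7 d (blue). Points are arrays and bars are means of 3. All 24 silver arrays at 7 d lie between 1.0 and 1.42, while those at 3 d run from -0.68 to 1.22.

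The spread between the 3 arrays of a silver group, as the median SD over the 150 genes, was 0.587 at 3 d and 0.302 at 7 d. Over all 23179 genes it was 0.363 and 0.301. The arrays of a silver group were farther apart at 3 d than at 7 d for 143 of the 150 genes (95.3%), beside 69.3% of all genes. In the controls, which the rule used, the SD was 0.702 at 3 d and 0.288 at 7 d. The 150 genes also deviated together. The mean correlation between 2 of them of their deviations from the group means over the 24 silver arrays at 3 d was 0.549, beside 0.0137 between any 2 of all genes. At 7 d it was 0.0542, beside 0.0107. These means are signed, so that positive and negative pairs offset each other, and a mean near 0 can hide correlated genes. The first principal component, the largest shared part of the deviations, held 62.6% of their variance at 3 d, beside 24.1% over all genes. At 7 d it held 28%, beside 24.8%. These correlations describe arrays that carry all genes at once, so that anything that moves a whole array enters them. Slides 7 and 8 held low arrays of several groups at 3 d. On slide 7 the mean level was -0.68 for AgNO3 EC50, -0.33 for the dispersant and 0.19 for Ag NM300K EC20, and on slide 8 it was -0.38 for un-spiked soil, -0.61 for the dispersant, 0.30 for Ag NM300K EC50 and 0.49 for Ag-NPs Non-Coated EC20. The part of the slides in the spread at 3 d was not tested.

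**Figure D3:**
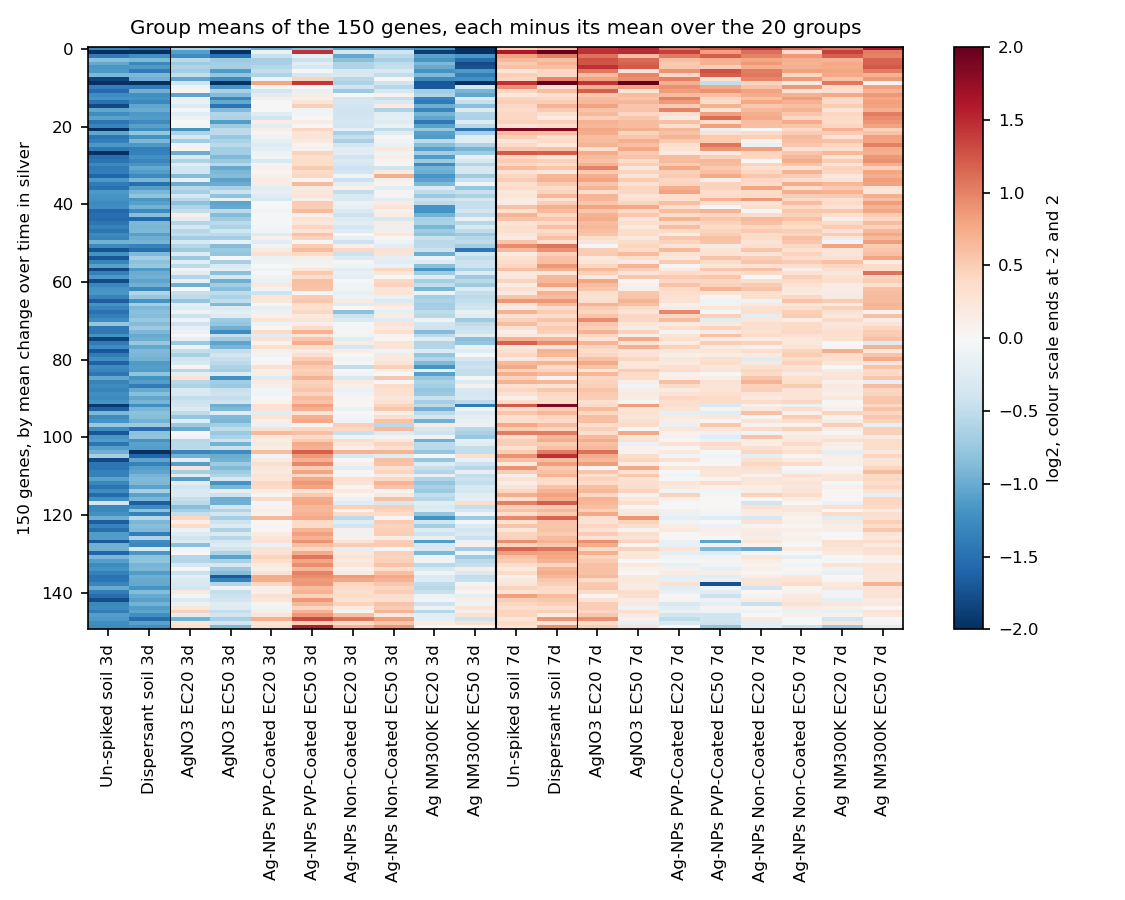
Group means (SVCD-normalized log2 signal) of the 150 genes, each minus the mean of that gene over the 20 groups, with groups at 3 d on the left and at 7 d on the right and genes ordered by their mean change over time in silver. The 2 control columns at 3 d are the lowest, as the rule selects, the silver columns at 3 d are mixed, and the columns at 7 d are nearly all above 0.

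SVCD normalization, used for the tests, aligns arrays over genes without detected variation. The first question outside the rule was whether the 150 genes also changed from 3 d to 7 d in worms that were exposed to silver. The rule used the silver arrays through the sum of their group means. The difference between the times would be independent of that sum if the arrays were equally spread at both times, which these were not, so the limit on silver can have entered the changes below. For that reason the changes were also taken in a list that uses no silver value, the 150 genes with the highest scores without the limit, a choice made after seeing the data. On average over the 8 exposures, 103 of the 150 genes rose at a false discovery rate below 5% (limma over all genes, after SVCD normalization). The background was 23.0% of all genes that rose and 15.4% that fell, and the share of the 150 genes that rose was 68.7%. A single one of the 150 genes fell, contig13232. In the list that uses no silver value, which shares 12 genes with the 150, 127 rose (84.7%) and 0 fell, with a median change of 0.94. Of all 502 genes with such scores 385 rose (76.7%). The change was above 0 in 139 of the 150 genes (92.7%), beside 55.6% of all genes. Its median was 0.50 (quartiles 0.33 and 0.81), with a median SE of 0.141 per gene, against a median over all genes of 0.04. The range was from -0.57 to 2.44. Within the 11 slides that held silver arrays of both times, the median change of the 150 genes, here on the array median scale, was above 0 on all 11 and ran from 0.0933 to 1.5. Within scan days 1, 2 and 3 it was 0.519, 0.0933 and 0.462, and the silver arrays of scan day 2 are those of slide 11. The arrays of the 2 times on a slide or day were not matched for exposure, so that material and dose enter these values. Slide 11 sets Ag-NPs PVP-Coated EC50 and Ag-NPs Non-Coated EC20 at 7 d against AgNO3 EC20 at 3 d. With the slide as a fixed block in the model, 64 of the 150 genes rose, beside 19.9% of all genes, and the median change was 0.35.

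Silver and control changes cannot be set against each other by a test, since the control arrays chose the genes. As values, the median difference of the 150 genes from their control lay between 0.387 (Ag NM300K EC20) and 1.28 (Ag-NPs PVP-Coated EC50) for the 8 exposures at 3 d, and between -0.300 (Ag NM300K EC20) and 0.0113 (AgNO3 EC20) at 7 d. Exposures with the same control share its 3 arrays, and low controls at 3 d and high controls at 7 d are what the rule picks. The rule also bounds the mean of all 16 differences, which was above 0 for 140 of the 150 genes. Neither scan days nor slides are balanced in the controls. All 3 arrays of un-spiked soil at 7 d were scanned on day 1, and at 3 d 1 was scanned on day 1 and the other 2 on day 3. Un-spiked soil lay on slides 11, 4 and 8 at 3 d and on slides 10, 12 and 13 at 7 d, so that time and slide cannot be told apart there. With dispersant, only slide 9 held both times, with a mean level of 0.76 at 3 d and 1.57 at 7 d. The other arrays had -0.33 and -0.61 at 3 d (slides 7 and 8) and 1.495 and 1.46 at 7 d (slides 15 and 6). The part of the slides in these changes was not tested.

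The exposures differed in how many of the 150 genes rose. With AgNO3 EC20, 47 rose where 9.95% of all genes did, and the median change was 0.94 beside 0.19 over all genes. With AgNO3 EC50, 26 rose where 1.23% of all genes did, and the median was 1.02 beside 0.01. Every one of the 150 changes was above 0 with this exposure, beside 50.6% of all genes. Ag NM300K had 20 at EC20, where the background was 0.971%, with a median of 0.86 beside 0.10. At EC50 it had 54, where the background was 18.7%, with a median of 0.87 beside 0.29. The 3 arrays at 7 d lay above the 3 at 3 d, on the array median scale, for 66 of the 150 genes with AgNO3 EC20 (background 9.17%), 71 with AgNO3 EC50 (6.74%), 84 with Ag NM300K EC20 (8.02%) and 66 with Ag NM300K EC50 (10.1%).

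With the coated and non-coated particles few of the 150 genes rose. Ag-NPs PVP-Coated had 5 at EC20 (background 0.764%) and 7 at EC50 (1.35%), and Ag-NPs Non-Coated had 8 at EC20 (2.42%) and 6 at EC50 (0.401%). The medians were 0.25, -0.24, 0.37 and 0.18 in that order, beside 0.01, -0.17, 0.05 and -0.19 over all genes. With Ag-NPs PVP-Coated EC50, 54 of the 150 changes were above 0 (36%), close to the 34.8% of all genes. With this exposure 4 of the 150 genes fell, where 10% of all genes fell. After MedianCD normalization, a variant of SVCD that uses medians, 5 rose there and 18 fell, beside 0.699% and 25.1% of all genes. Arrays at 7 d lay above all those at 3 d for 34 genes there (background 15.6%) and below them for 40, beside 18.5% of all genes. The counts of single exposures rest on 3 arrays a side. For AgNO3 EC50 the count was 6 without replicate 3 at 3 d and 76 without replicate 2 at 3 d, and for AgNO3 EC20 it was 22 without replicate 3 at 3 d. For Ag NM300K EC20 it was 7 without replicate 1 at 7 d, and for Ag NM300K EC50 28 without replicate 3 at 3 d. The shares of all genes in these fits without 1 array were not taken. The model takes 1 spread per gene over all groups, while the 150 genes were more spread at 3 d. With each exposure fitted alone, 0 of the 150 rose with both doses of AgNO3, beside 0% of all genes. The counts were 10 and 14 for Ag NM300K, 0 and 9 for the coated and 0 and 1 for the non-coated particles, in order of dose. The shares of all genes were 0.28% and 0.362%, 0.00431% and 2.15%, and 0% and 0.00431%, in that order. With Ag-NPs PVP-Coated EC50 fitted alone, 26 of the 150 genes fell, beside 9.85% of all genes.

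**Figure D4:**
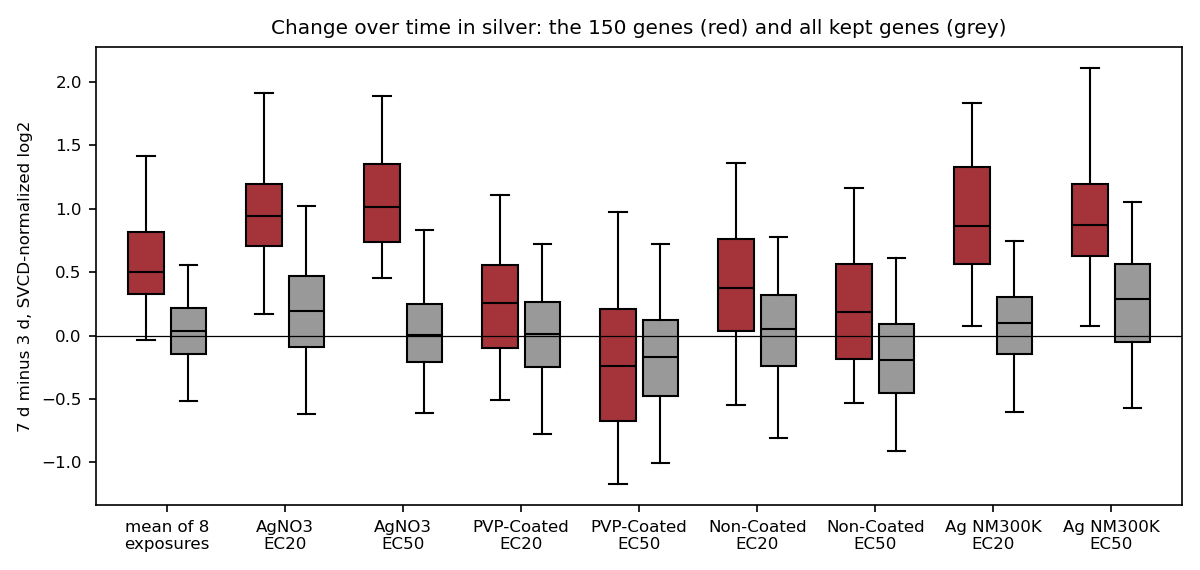
Change from 3 d to 7 d in silver (vertical axis, SVCD-normalized log2) for the mean of the 8 exposures and for each exposure (horizontal axis), in the 150 genes (red) and in all 23179 genes (grey). Boxes span the quartiles around the median and whiskers run from the 5th to the 95th percentile. The medians of the 150 genes are 0.94 and 1.02 with AgNO3 and 0.25 and -0.24 with Ag-NPs PVP-Coated.

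The difference among materials was tested itself, with an F-test (limma) that compares the 4 materials in their change over time, each averaged over both doses. It called 44 of the 150 genes, where 10.7% of all genes were called. In these 44 the median change was 1.10 for AgNO3, 0.79 for Ag NM300K, -0.37 for Ag-NPs PVP-Coated and -0.00 for the non-coated particles. AgNO3 had the highest change in 36 of them and Ag NM300K in the other 8, and Ag-NPs PVP-Coated had the lowest in 41 and Ag-NPs Non-Coated in the other 3. This count depended on the choice of the genes and on the normalization. In the list that uses no silver value 16 genes were called, which is the 10.7% of all genes. After Median normalization 2 of the 150 genes were called, beside 0.673% of all genes, while the medians of the single exposures went the same way there, at 0.71 and 0.97 for AgNO3 and 0.26 and -0.07 for Ag-NPs PVP-Coated. Ag NM300K, the material in dispersant, was also set against the mean of the other 3. The difference was above 0 for 143 of the 150 genes (95.3%), beside 77.3% of all genes. Its median was 0.51, beside 0.21 over all genes. The test called 1 of the 150 genes, contig07851, where 2.23% of all genes were called. At an unadjusted p below 0.05 there were 41 of the 150, beside 21.5% of all genes.

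A difference between the doses was not detected in these genes after SVCD normalization. Between EC50 and EC20, averaged over the 4 materials and both times, limma called 0 of the 150 genes where 6.29% of all genes were called, and 9 of the 150 had an unadjusted p below 0.05, beside 23.1% of all genes. The methods' t-test, in which material and time enter the spread, called 0 as well. It also called 0% of all genes, so that it tells nothing about these 150. The median difference was 0.08, the same as the 0.08 over all genes, with a median SE of 0.141 per gene and a range from -0.39 to 0.33. After normexp background correction 39 of the 150 genes were called, all lower at EC50, beside 47.4% of all genes that were called lower there.

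Across genes the changes over time in single exposures resembled each other. The Pearson correlation of the changes of the 150 genes between 2 exposures had a median of 0.610 over the 28 pairs, with a lowest value of 0.136 (AgNO3 EC50 and Ag-NPs PVP-Coated EC50) and a highest of 0.828 (Ag-NPs PVP-Coated EC20 and Ag-NPs Non-Coated EC20). Over all genes the median was 0.479, from 0.0118 to 0.697. These exposures share no arrays, but they share slides. A higher score in the controls went little with a higher mean change in silver, with a Pearson r of 0.314 and a Spearman rho of 0.122 over the 150 genes and an r of 0.151 without the 2 highest scores.

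The genes with the highest scores were not those with the steadiest changes in silver. The first was contig16496. Its SVCD-normalized log2 level was 6.51, 4.59 and 4.58 in un-spiked soil at 3 d and 8.45, 10.39 and 9.93 at 7 d. In soil with dispersant it was 4.45, 4.68 and 7.12 at 3 d and 9.98, 10.37 and 11.15 at 7 d. On the 24 silver arrays it had a lowest level of 3.13, a median of 7.18 and a highest level of 9.79 at 3 d, and 8.03, 9.23 and 10.004 at 7 d. The 2 times overlapped, with arrays at 3 d above the lowest at 7 d in 5 of the 8 exposures. With Ag-NPs PVP-Coated EC50 all 3 arrays at 3 d, at 9.79, 9.08 and 9.42, stood above the 8.82, 8.68 and 8.95 of the same exposure at 7 d. The mean change in silver was 2.10 ± 0.34 (SE), which is 4.29-fold, with an adjusted p of 3.42e-06 by limma. It was above 0 in 7 of the 8 exposures and significant in 2. The second score was that of contig17671, with a silver change of 1.32 ± 0.39 (limma adjusted p = 0.00624), which ran from -1.91 to 4.21 among exposures. The third, contig14950, changed by 0.95 ± 0.21 (adjusted p = 0.000327). The fourth, GYUW2K402G7VDL, did not pass, at 0.42 ± 0.22 (adjusted p = 0.127). It had changed by 2.89 and 2.99 in the 2 kinds of control.

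After SVCD normalization 4 of the 150 genes rose in all 8 exposures, where 0.0475% of all genes (11) did so. The number of single exposures in which a gene rose was 0 for 72 of the 150 genes, where it was 0 for 74.8% of all genes. It was 1 for 35, 2 for 22 and 3 for 12 of the 150, beside 18%, 5.14% and 1.23% of all genes. The 4 were contig00745, GYUW2K402IPM7P, contig14595 and contig25327. How many genes rose in all 8 depended on the model, with between 1 and 6 when 1 array was left out, the lowest without Ag-NPs PVP-Coated EC20 3d replicate 1, and 0 after normexp, with the slide as a fixed block, with each exposure fitted alone and by the methods' t-test. The first of them, contig00745, also had the highest mean change of the 150 genes. Its level was 11.78, 11.35 and 11.10 in un-spiked soil at 3 d and 13.12, 13.09 and 13.33 at 7 d. On the silver arrays it had a lowest value of 9.20, a median of 11.80 and a highest value of 12.84 at 3 d, and 13.48, 14.10 and 14.64 at 7 d. No silver array at 3 d reached any at 7 d. The dispersant stood at 13.59, 13.33 and 13.07 at 7 d, and all silver arrays at 7 d but the lowest were above these. The change in silver was 2.44 ± 0.14, or 5.42-fold (limma adjusted p = 2.26e-17), from 2.03 with Ag-NPs PVP-Coated EC20 to 3.96 with Ag NM300K EC50, and the array of 9.20 belonged to this last exposure. GYUW2K402IPM7P had a lowest value of 3.57, a median of 5.18 and a highest value of 6.03 in silver at 3 d, and 6.41, 7.01 and 7.57 at 7 d, again with no overlap. It rose by 1.90 ± 0.13 (limma adjusted p = 1.94e-15). On the array median scale these 2 were among the 7 of all 23179 genes (0.0302%) whose 24 silver arrays at 7 d all lay above the 24 at 3 d. The other 2 rose by 1.71 ± 0.11 (contig14595) and 1.56 ± 0.10 (contig25327).

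The most abundant of the 150 genes, contig00399 with a mean log2 signal of 16.51 over all arrays, followed a like course. It had a lowest level of 13.71, a median of 15.78 and a highest level of 16.66 in silver at 3 d, and 16.77, 17.44 and 17.93 at 7 d, so that the times did not overlap after SVCD normalization. The change was 1.65 ± 0.12 (3.13-fold, limma adjusted p = 9.05e-15), and it rose in 7 of the 8 exposures. In the eighth, Ag-NPs PVP-Coated EC50, the change was 0.91 ± 0.33 (adjusted p = 0.0635). The next in abundance, contig11280 with a mean of 15.42, rose by 0.45 ± 0.12 (adjusted p = 0.00216) on average and in none of the single exposures. The gene called for Ag NM300K, contig07851, was named after its values were seen. It changed by 1.75 at EC20 and 2.97 at EC50 with that material, and by 0.81 to 2.06 with the others, a difference of 0.96 ± 0.26 (limma adjusted p = 0.0441). This call was lost in 8 of 14 alternatives and without any 1 of 25 of the 48 arrays.

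Other genes were already high at 3 d in part of the silver groups. GYUW2K401DEONM had the smallest p among the 150 genes in the F-test of the materials (limma adjusted p = 0.00192). In un-spiked soil it stood at 7.12, 6.27 and 6.93 at 3 d and 8.11, 8.50 and 8.64 at 7 d. With AgNO3 EC20 it was 7.07, 7.59 and 6.66 at 3 d and 9.07, 9.13 and 8.97 at 7 d, a rise of 1.95 ± 0.35 (limma adjusted p = 0.000769). With Ag-NPs PVP-Coated EC50 it was 9.17, 9.20 and 9.15 at 3 d and 8.51, 7.93 and 8.30 at 7 d. These arrays did not overlap either, with the later time lower, but the change of -0.93 ± 0.35 missed the threshold (adjusted p = 0.0781). The lowest mean change of the 150 genes was that of contig13232, at -0.57 ± 0.21 (limma adjusted p = 0.0256). It stood at 4.81, 4.41 and 5.15 in un-spiked soil at 3 d and 6.08, 6.87 and 6.09 at 7 d. With Ag-NPs PVP-Coated EC50 it was 7.76, 7.38 and 7.77 at 3 d and 4.99, 5.17 and 5.68 at 7 d, a fall of 2.35 on the log2 scale (adjusted p = 0.00566). The second lowest, contig05659, had -0.30 ± 0.15 and did not pass (adjusted p = 0.107), but it did in 4 of 14 alternatives and without AgNO3 EC50 3d replicate 3 (adjusted p = 0.0239).

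**Figure D5:**
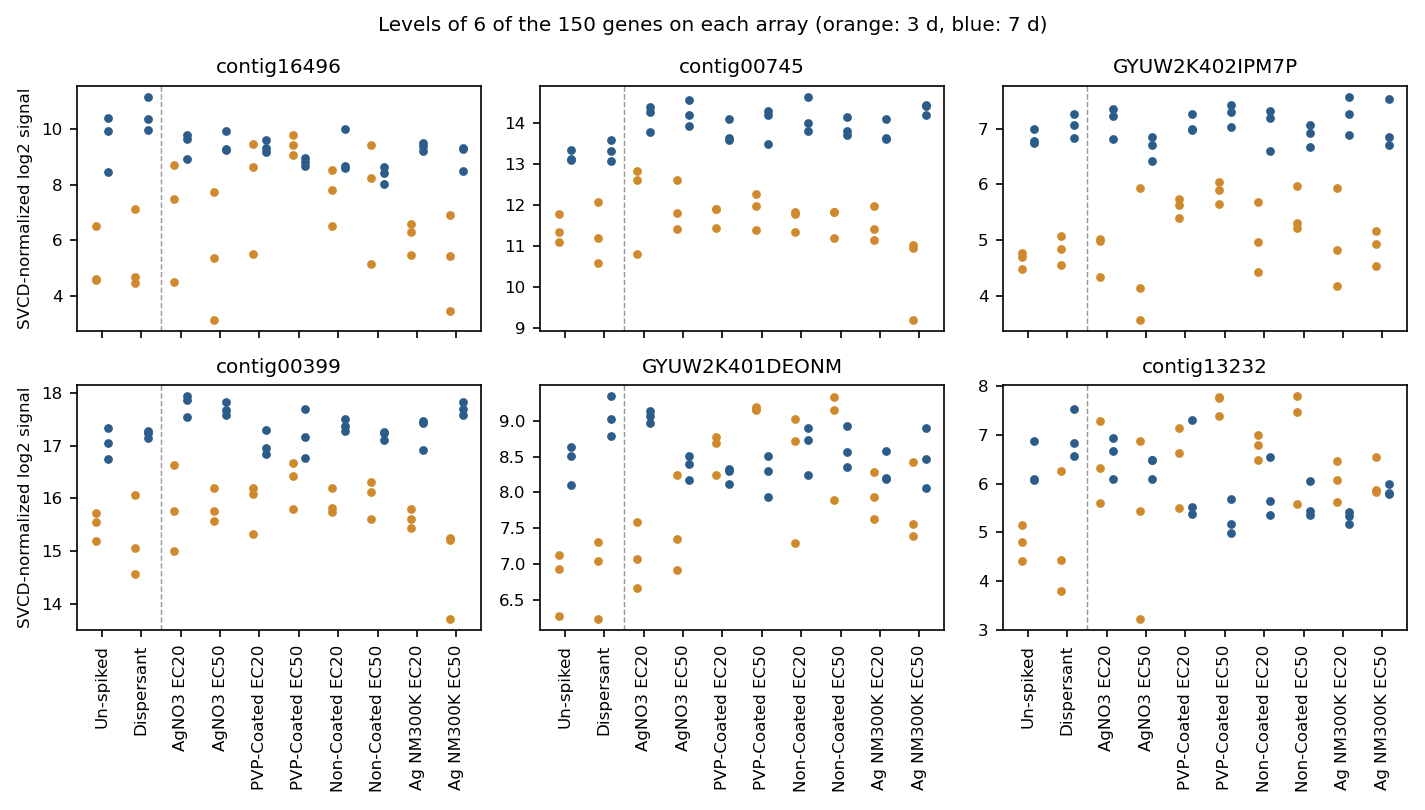
SVCD-normalized log2 signal (vertical axes, with a scale of their own) of 6 of the 150 genes on each array, by control or silver exposure (horizontal axes), at 3 d (orange) and 7 d (blue). The 24 silver arrays of contig00745 at 7 d (13.48 to 14.64) lie above those at 3 d (9.20 to 12.84), while contig13232 is higher at 3 d than at 7 d with Ag-NPs PVP-Coated EC50.

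The other 3 genes that fell with Ag-NPs PVP-Coated EC50 were contig02199, contig21281 and contig14847, named here because they are few. With contig21281, which fell by 2.62 on the log2 scale (adjusted p = 0.0116), 1 array stood apart, with 12.60, 12.65 and 12.86 at 3 d against 5.99, 11.89 and 12.39 at 7 d. Without that array the change of contig21281 was -0.57 (limma adjusted p = 0.414). For contig14847 all 3 arrays took part, with 8.56, 7.97 and 8.70 against 6.93, 6.35 and 6.83 (adjusted p = 0.0229), although the call was lost in 8 of 14 alternatives and in 3 of 6 fits without 1 array. For contig02199 the values were 12.86, 12.78 and 12.51 against 11.97, 8.98 and 11.35 (adjusted p = 0.0133). Without 7d replicate 2 the change of contig02199 was -1.05 (limma adjusted p = 0.26).

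Among features that the rule did not use, the 150 genes were of 150 different sequences, 91 contigs and 59 single reads. Contigs made up 60.7% of them and 48.2% of all genes, a difference that was not tested. On average in silver, 60 of the 91 contigs rose (65.9%) and 43 of the 59 reads (72.9%), where the shares among all genes were 21.4% and 24.5%. The mean log2 signal over the 60 arrays ran from 3.95 to 16.51 with a median of 7.17, and over all genes the median was 6.58. Of the 150 genes, 104 (69.3%) were well above background on all 60 arrays, beside 71.8% of all genes. For 5 of them all 3 arrays of some group were not well above background, which made 8 such cases, all of them at 3 d. None of these 5 is named above.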

How the data were processed

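Total RNA of 60 pools of worms was hybridised to 1-colour (Cy3) custom Agilent arrays. Per the file headers, the authors quantified the scans with Agilent Feature Extraction 10.7.3.1, and the deposited values are a background-corrected intensity per spot (the processed signal) with quality flags. Of 43750 gene probes, 23179 carried the flag for a positive and significant signal on every array and entered the analysis. None was saturated, and 308 outlier spots were set missing in the model.

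Arrays were normalized on the log2 scale by SVCD (standard-vector condition-decomposition), the study's method, written anew: arrays are shifted to each other within groups, and groups over 6587 genes without detected variation. The 150 genes were chosen on the deposited intensity minus the array median. limma 3.58.1 in R 4.3.3 was fitted to all 60 arrays with a mean per group, and p-values were adjusted by Benjamini-Hochberg over the 23179 genes. A gene rose or fell at a false discovery rate below 5%. No contrast with control arrays was tested. The rule, the named genes and the comparisons were chosen with earlier results of these data known. Named were the 4 highest scores, the 2 genes on each side of the border, the 2 highest and 2 lowest mean changes in silver, the 2 called in most exposures, the smallest p among materials and the 2 highest signals. Scripts were checked on simulated data. The arrays, 3 biological replicates a group per the study, limit the precision. Replicate numbers were not taken to pair the arrays. The mean correlation of deviations was 0.0162 for arrays of the same number and -0.00772 for those of other numbers. Same-numbered arrays at 3 d and 7 d correlated from -0.463 to 0.472, and over 0.1 in 10 of 24 pairs.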

Additional observations from a re-analysis of the deposited data

Results flagged for a closer look

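The change over time in silver differed among the 4 materials for 44 of the 150 genes (limma F-test, false discovery rate below 5%, background 10.7%), and for 16 of the 150 genes with the highest control scores when no silver value enters the choice. This was looked at again because the count in the 150 genes was above the background after SVCD normalization. The 16 were at the background share. After Median, 75th percentile and Quantile normalization 2, 3 and 2 of the 150 genes were called, beside 0.673%, 0.777% and 0.837% of all genes. Of the genes named, contig14847 (adjusted p = 0.00223), contig07851 (adjusted p = 0.0091), contig02199 (adjusted p = 0.0109), contig16496 (adjusted p = 0.0411), contig17671 (adjusted p = 0.0376), GYUW2K401DEONM (adjusted p = 0.00192) and contig00399 (adjusted p = 0.0244) were among the 44. For contig07851 the change with Ag NM300K exceeded that with the other 3 materials by 0.96 on the log2 scale (limma adjusted p = 0.0441). Ag NM300K was the only material in soil with dispersant, so that material and dispersant cannot be told apart in this difference.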

How the results depend on the processing

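All counts here are of the 150 genes. The count that rose in silver on average, 103, lay between 74 and 109 under 12 of 14 alternatives with the same 150 genes (74 were left where only the 104 of the 150 genes well above background could be tested) and between 95 and 111 when each of the 48 silver arrays was left out in turn. Under these 12 alternatives 15.1% to 28.2% of all genes rose, and in the fits without 1 array that share was not taken. The exceptions were normexp background correction, with 64 that rose and 12 that fell, and the slide as a fixed block, with 64. Beside these, 7.01% of all genes rose and 41.6% fell after normexp, and 19.9% rose with the slide as a fixed block. The median change stayed above 0 under each of the 13 alternatives that give one, between 0.18 and 0.57. The cause of the differences below was not tested unless stated.

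Counts of single exposures moved with the scaling. After Median normalization 16 genes rose with AgNO3 EC20 and 10 and 16 with Ag NM300K EC20 and EC50. The shares of all genes were 1.14%, 0.224% and 1.58%. With the 75th percentile of each array the counts were 19, 12 and 17, and with Ag-NPs PVP-Coated EC50 11. Beside them 1.46%, 0.255%, 1.46% and 2.14% of all genes rose. Quantile normalization gave 19 with AgNO3 EC20, 18 with Ag NM300K EC50 and 11 with Ag-NPs PVP-Coated EC50. Of all genes, 1.8%, 1.75% and 2.28% rose there. MedianCD normalization gave 39 with Ag NM300K EC20 and 17 with Ag-NPs Non-Coated EC20, where 2.6% and 6.12% of all genes rose. With Ag-NPs PVP-Coated EC50 5 rose and 18 fell, beside 7 and 4 in the main fit. Of all genes, 0.699% rose and 25.1% fell with that exposure after MedianCD. After normexp the counts were 3 and 4 for the doses of AgNO3, 2 and 7 for Ag NM300K and 72 and 3 for Ag-NPs Non-Coated. With Ag-NPs PVP-Coated 4 rose at either dose and 54 fell at EC20. The shares of all genes that rose were 0.0906% and 0.181%, 0.0647% and 0.25%, 49.1% and 0.16%, and 0.164% and 0.639%, in that order. With Ag-NPs PVP-Coated EC20 56% of all genes fell. With no filter on dim probes the counts were 20 and 46 for AgNO3 and 33 and 23 for Ag NM300K. They were 1 for Ag-NPs PVP-Coated EC20 and 4 for Ag-NPs Non-Coated EC20. Of all genes, 1.07% and 1.74%, 1.22% and 2.1%, 0.0914% and 0.238% rose there, in that order.

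With the slide as a fixed block, 69 rose with AgNO3 EC50 and 37 and 25 with the doses of Ag NM300K. There were 1 and 1 with Ag-NPs Non-Coated, and 0 and 0 with Ag-NPs PVP-Coated. The shares of all genes were 3.94%, 3.57% and 15.6%, 0.518% and 0.0388%, and 0.0561% and 0.418%, in that order. With the slide as a random block (correlation 0.354) the counts were 74 with AgNO3 EC50, 52 with Ag NM300K EC20 and 2 with Ag-NPs PVP-Coated EC20. Of all genes, 4.4%, 4.5% and 0.716% rose there. With scan day as a block, 4 rose with Ag-NPs PVP-Coated EC50, beside 0.889% of all genes. The median change with Ag-NPs PVP-Coated EC20, 0.25, was -0.26 with the slide as a fixed block, -0.26 after normexp and -0.02 with no filter. With the 6 arrays of an exposure fitted alone, 0 rose with either dose of AgNO3 and 10 and 14 with Ag NM300K. There were 0 with Ag-NPs PVP-Coated EC20 and 0 and 1 with Ag-NPs Non-Coated. With Ag-NPs PVP-Coated EC50 9 rose and 26 fell in that fit, beside 2.15% and 9.85% of all genes. The methods' t-test has as few arrays per gene. It called 0 of the 150 genes higher in 7 of the 8 exposures, beside at most 0.0302% of all genes. With Ag-NPs PVP-Coated EC50 it called 2 higher and 5 lower, beside 0.457% and 3.03% of all genes. At an unadjusted p below 0.05, with changes in either direction counted, it had between 16 and 91 of the 150 per exposure. The share of all genes at that p was not taken.

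The 44 genes that differed among materials were 2 after Median, 3 after 75th percentile, 2 after Quantile and 73 after MedianCD normalization. The shares of all genes were 0.673%, 0.777%, 0.837% and 22.2%. The count was 22 with no filter on dim probes, 23 with well above background probes alone and 23 with scan day as a block. Of all genes, 2.53%, 9.21% and 6.72% were called there. With the slide as a fixed and a random block it was 25 and 73, beside 4.17% and 15.4% of all genes. The 1 gene called for Ag NM300K against the other materials became 0 under Median, 75th percentile and Quantile normalization, normexp, both filters, and scan day or slide as a fixed block. Under these at most 2.11% of all genes were called. It became 13 under MedianCD, 9 with the slide as a random block and 3 by the methods' t-test. The shares of all genes were 13.3%, 5.84% and 5.35%. The count for dose, 0, became 39 after normexp, all lower at EC50, 3 after MedianCD and 1 with the slide as a random block. Of all genes, 47.4%, 17.8% and 10.5% were called there. Applied to SVCD values, the rule kept 78 of the 150 genes. Without its limit on silver, an alternative chosen after seeing the data, it kept 12, and the list then held 127 genes that rose on average, 44 with AgNO3 EC50, 2 and 1 with Ag-NPs PVP-Coated, 1 and 1 with Ag-NPs Non-Coated, 16 that differed among materials and 1 for dose. The shares of all genes for this list are those given above for the main fit.

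Leaving out 1 array at a time, with normalization kept, gave between 22 and 56 genes with AgNO3 EC20, 6 and 76 with AgNO3 EC50, 1 and 4 with Ag-NPs PVP-Coated EC20, 3 and 7 with Ag-NPs PVP-Coated EC50, 3 and 11 with Ag-NPs Non-Coated EC20, 1 and 6 with Ag-NPs Non-Coated EC50, 7 and 27 with Ag NM300K EC20, and 28 and 47 with Ag NM300K EC50. It gave 30 to 70 among materials, 0 to 4 for Ag NM300K against the others and 0 to 3 for dose, and without 1 control array the rule kept 100 to 137 of the 150 genes. The extremes among materials were without AgNO3 EC50 3d replicate 3 (30) and replicate 2 (70). For these counts the shares of all genes were not taken, so that a move of all genes is not told apart from a move of the 150. With the replicate number as a block, the counts were 106 on average in silver, 48 and 28 with AgNO3, 22 and 52 with Ag NM300K and 43 among materials, and no count moved by over 1.5 times. The shares of all genes were 23.1%, 10% and 1.3%, 1.07% and 18.8%, and 10.9%, in that order.

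For the 15 genes of the 150 whose mean change in silver was recomputed, none of these alternatives and no left-out array reversed it. GYUW2K401DEONM lost its call in 7 of 14 alternatives and without 2 of the 48 arrays, contig13232 in 3, contig11280 with the slide as a fixed block and after normexp, and contig17671, GYUW2K401CDLK2 and GYUW2K401AHIW9 with the slide as a fixed block. Calls were gained by contig05659 in 4 and by GYUW2K402G7VDL with the silver arrays fitted alone. With Ag-NPs PVP-Coated EC50, contig02199 lost its call in 6 of 14 alternatives, contig21281 in 5, contig14847 in 8 and contig13232 in 1. Values taken from the series matrix changed no count by over 1.5 times.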
